A study of Mus musculus with 12 samples.

Results

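The collagen genes were taken as every gene symbol of the form Col, number, a, number, leaving out Col17a1, and 42 of the 23235 gene rows fitted that form. They were 11 fibrillar collagen genes, 9 basement membrane collagen genes (types IV, VII, XV and XVIII) and 22 genes of other types. Transcript levels came from poly-A RNA of the tongue of 31-week-old C57BL/6 mice, with 12 samples in 4 labelled groups of 3. The groups were 4-NQO/EtOH, 4-NQO/Untr., V.C./EtOH and V.C./Untr.; 4-NQO is 4-nitroquinoline oxide, a carcinogen given to mice to model oral cancer, EtOH is ethanol, and the labels do not spell out V.C. or Untr. The deposited tables give 1 level per gene for each of 4 numbered groups, and the sources used here do not link the numbers to the treatments, so every comparison is between numbered groups and none is named for a treatment.

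Collagens are extracellular matrix proteins built of 3 chains wound into a triple helix. Fibrillar collagens I, III and V, made mostly by fibroblasts, assemble into the fibres that give connective tissue its tensile strength. Type IV forms the network of every basement membrane, type VII forms the anchoring fibrils that tie a stratified epithelium to its stroma, and types XV and XVIII lie in the basement membrane zone. Type VI forms beaded filaments around cells, and the fibril-associated types, such as XII and XIV, bind to the surface of fibrils. The dorsal tongue has a keratinised stratified epithelium over a fibrous lamina propria and a core of skeletal muscle, so its collagen comes from several cell types.

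Levels are FPKM (read fragments relative to transcript length and to the size of the library) of a whole group. The unit corrects for transcript length but not for other differences between genes, so ratios of different genes are rough guides. The number of reads per sample is unknown and no value per sample was used, so errors are standard errors (SE) implied by the authors' test statistics, with n = 3 per group as the series states. Nothing says whether the 3 samples of a group came from separate animals, so the p-values cannot be taken to cover the spread between animals. Within a group the SE of a log2 level was nearly alike for genes at similar levels. In group 1 it was 0.109 for each of Col1a1, Col4a1 and Col6a1, so it may not measure each gene's own spread between samples. Over all genes the median SE of a log2 level was 0.332 (group 4), 0.493 (group 3), 0.205 (group 2) and 0.139 (group 1), so the power to call a difference was lowest where group 3 was involved. For the collagen genes at 1 FPKM it was 0.314 (group 4), 0.488 (group 3), 0.180 (group 2) and 0.122 (group 1). A gene is called higher or lower in a pair of groups when at least 1 of them reached 1 FPKM and its q-value in the authors' deposited table was under 0.05. Differences are on the scale log2(FPKM + 1), first group minus second, which understates the change of genes at low levels. The SE on that scale shrinks as a level falls under 1 FPKM. For genes near or under 1 FPKM, a difference over its SE can therefore depart from the authors' test, in either direction. Genes at 5 FPKM or more were shifted as a whole, with a median log2 ratio of -0.16 in group 4 against group 1 and -0.14 in group 4 against group 2. Where taking that shift out ends a call, this is stated beside it.

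Of the 42 collagen genes, 23 reached 1 FPKM in 1 or more groups and 18 did so in every group. Col4a5, Col12a1, Col20a1, Col22a1 and Col8a2 reached it in some groups and not in others, so their entry among the 23 depended on the groups where they were higher. The markers Col1a1, Col3a1 and Col4a1 were all well detected, with levels between 5.85 and 30.3 FPKM. The 19 genes under 1 FPKM ranged from 0.00130 to 0.664 FPKM and are not compared further. They were the fibrillar Col2a1, Col11a1, Col11a2, Col24a1 and Col27a1, the type IV chains Col4a3, Col4a4 and Col4a6, and 11 others (Col6a4, Col6a5, Col6a6, Col9a1, Col9a2, Col9a3, Col10a1, Col13a1, Col19a1, Col25a1 and Col28a1). Among them Col2a1, the fibrillar collagen of cartilage, did not exceed 0.0783 FPKM in any group, and Col10a1, the collagen of hypertrophic cartilage, did not exceed 0.0577 FPKM.

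The 42 genes lie on 13 chromosomes of mm9, with 7 on chromosome 1. Several are neighbours, in that no other gene row starts between them. Col4a1 (chr8:11198423-11312826) and Col4a2 (chr8:11312829-11449287) are 2 bases apart, the type IV chains Col4a6 and Col4a5 are 1342 bases apart on chromosome X, and the fibrillar genes Col3a1 (chr1:45368383-45406551) and Col5a2 (chr1:45431176-45560127) are 24624 bases apart. Promoter windows of 250 bases before the transcription start were matched by symbol in RefSeq (build GRCm38.p6) for 34 of the 42 genes, in 37 windows, each of which had 1 exact match in mm9. The sequences below belong to 4 of the genes called in groups 3 and 4 against groups 1 and 2, those with a window that overlaps no annotated exon. Col7a1 is higher in groups 3 and 4 and the other 3 genes are lower, so the set shows the upstream sequence of genes that differ in opposite directions. Each is printed on its gene's strand with its mm9 position, and capitals mark a match, on either strand, to CCAAT (the NF-Y box), TATAAA (the TATA box), GGGCGG (the GC box bound by Sp1), TGANTCA (the AP-1 site) or CAGACA (a Smad-binding sequence).
Col7a1 (chr9:108855381-108855630, plus strand): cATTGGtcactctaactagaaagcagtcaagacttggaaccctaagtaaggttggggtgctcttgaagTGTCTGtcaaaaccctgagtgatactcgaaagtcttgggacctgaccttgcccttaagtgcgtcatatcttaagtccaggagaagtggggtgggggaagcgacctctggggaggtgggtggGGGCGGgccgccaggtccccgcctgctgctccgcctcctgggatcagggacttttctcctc
Col3a1 (chr1:45368133-45368382, plus strand): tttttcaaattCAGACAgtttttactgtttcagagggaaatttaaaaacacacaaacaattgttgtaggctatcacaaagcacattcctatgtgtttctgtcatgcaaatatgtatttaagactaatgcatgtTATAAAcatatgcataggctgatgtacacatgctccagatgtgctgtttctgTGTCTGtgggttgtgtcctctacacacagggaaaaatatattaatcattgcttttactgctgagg
Col15a1 (chr4:47220634-47220883, plus strand): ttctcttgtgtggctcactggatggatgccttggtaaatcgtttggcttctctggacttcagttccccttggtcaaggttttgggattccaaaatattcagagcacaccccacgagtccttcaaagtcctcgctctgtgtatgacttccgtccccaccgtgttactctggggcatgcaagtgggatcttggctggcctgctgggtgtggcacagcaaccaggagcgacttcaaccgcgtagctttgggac
Col6a2 (chr10:76086376-76086625, minus strand): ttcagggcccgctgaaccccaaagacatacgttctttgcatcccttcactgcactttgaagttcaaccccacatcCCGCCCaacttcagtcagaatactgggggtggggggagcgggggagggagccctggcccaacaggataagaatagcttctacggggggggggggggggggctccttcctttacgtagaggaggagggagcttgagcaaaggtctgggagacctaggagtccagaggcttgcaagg
Strands are given relative to the printed one, and in these 4 windows no 2 matches overlap each other. The Col3a1 window holds TATAAA 117 to 112 bases before the start and CAGACA at 239 to 234 and, on the opposite strand, at 65 to 60. The Col7a1 window holds CCAAT on the opposite strand at 249 to 245, CAGACA on the opposite strand at 182 to 177 and GGGCGG at 61 to 56. Col15a1 has no match to the 5 motifs, and the printed Col6a2 window, which lies 226 bases upstream of the deposited locus, has 1, to GGGCGG on the opposite strand. Another Col6a2 window, which adjoins the deposited locus and overlaps an exon, is not printed and holds 3 matches to GGGCGG. The Col7a1 window ends 159 bases before the deposited locus. Over all 37 collagen windows, GGGCGG was in 22, CCAAT in 12, CAGACA in 9, TATAAA in 4 and TGANTCA in 1. Of all 32851 windows of this length, 32.7% held GGGCGG, 33.8% CCAAT, 17.1% CAGACA, 12.4% TATAAA and 6.75% TGANTCA.

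Summed over the 42 genes, collagen transcripts were lowest in group 4 and highest in group 2. The sums were 97.7 (group 4), 129.3 (group 3), 175.7 (group 2) and 140.9 FPKM (group 1). The fibrillar genes gave 37.8 (group 4), 61.0 (group 3), 84.6 (group 2) and 66.0 FPKM (group 1). The type VI genes gave 16.4 (group 4), 18.0 (group 3), 37.6 (group 2) and 29.0 FPKM (group 1). The fibrillar sum was thus lower in group 4 than in the other 3 groups, whereas the type VI sum was low in both groups 4 and 3. The basement membrane sum stayed within a narrow range, at 27.0 (group 4), 34.8 (group 3), 32.2 (group 2) and 28.8 FPKM (group 1). As a share of all collagen FPKM it was 27.7% (group 4), 27.0% (group 3), 18.3% (group 2) and 20.5% (group 1). In bulk tissue, fewer cells of a type and less RNA per cell cannot be told apart in any of these values.

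**Figure D1:**
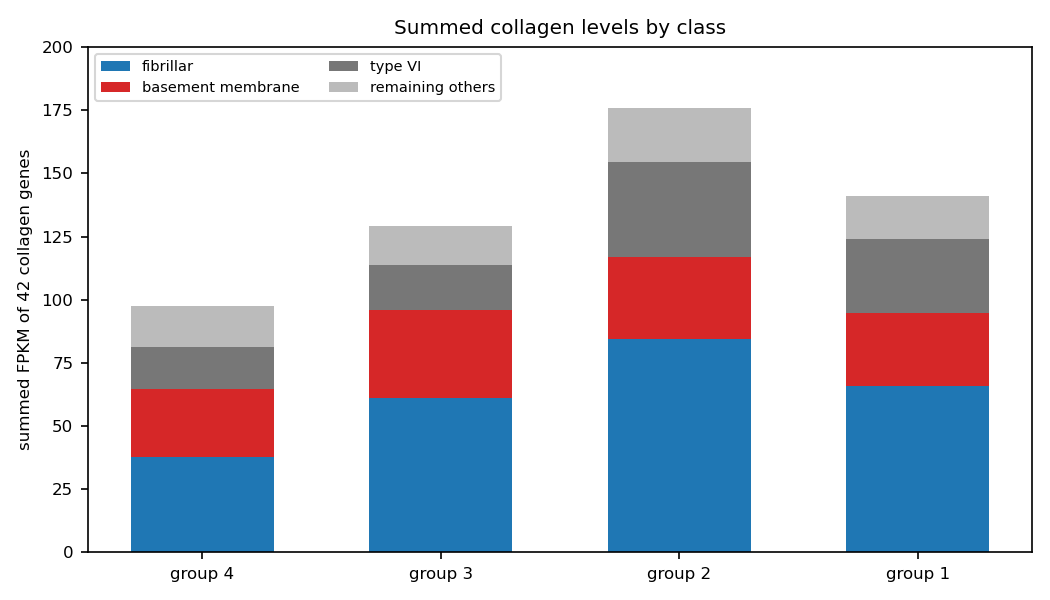
Summed FPKM of the 42 collagen genes (vertical axis, from 0) in each numbered group (horizontal axis), stacked by class, with type VI drawn apart from the remaining other types. The whole bar is lowest in group 4 (97.7) and highest in group 2 (175.7), and the fibrillar and type VI segments account for most of that difference; no error is drawn because the tables hold 1 value per group.

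Of the 23 collagen genes at 1 FPKM, 17 had their highest level in group 2, where 26.8% of all genes at 1 FPKM had theirs. None of the 23 was highest in group 1, where 29.0% of all genes were. The lowest level fell in group 4 for 11 of the 23, against 31.4% of all genes. Levels of groups 3 and 4 both lay below those of groups 1 and 2 for 13 of the 23 (44.9% of all genes) and both above for 4 of them (34.6% of all genes).

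**Figure D2:**
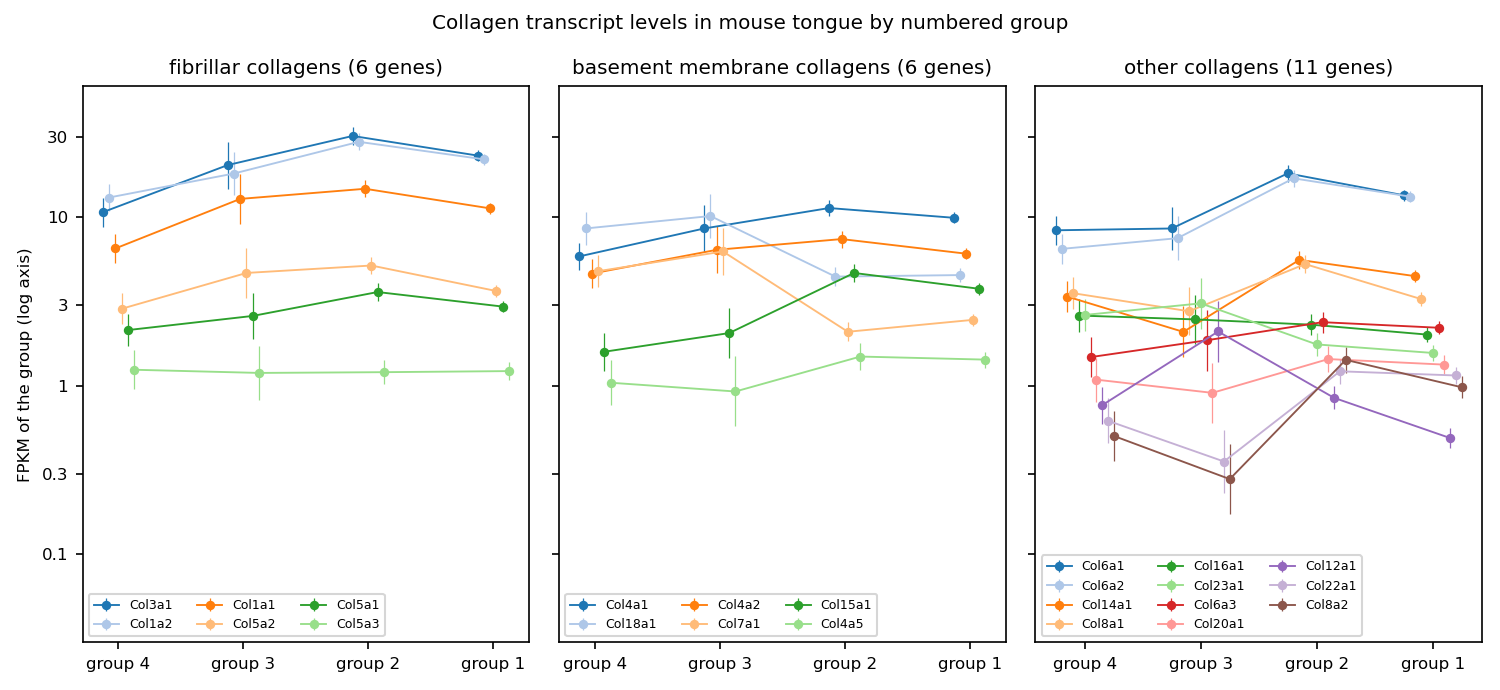
FPKM (vertical log axis) of the 23 collagen genes at 1 FPKM or more in each numbered group (horizontal axis), split into fibrillar, basement membrane and other types; points are group levels, bars are 1 SE of the log2 level and lines join the points of 1 gene. Most lines peak in group 2, while Col7a1 and Col18a1 are higher in groups 4 and 3 than in groups 2 and 1.

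Of the 6 fibrillar collagens tested, 3 were lower in group 4 than in group 2, where 2.25% of all genes tested were lower, and 1 was lower than in group 1, where 3.91% were. That gene, lower in both, was Col3a1, which encodes the chain of type III collagen. Col3a1 stood at 10.7 (group 4), 20.4 (group 3), 30.3 (group 2) and 23.2 FPKM (group 1). Its level in group 4 was the lowest of the 4 and lay apart from groups 2 and 1 by more than the SE, whereas group 3, with an SE of 0.46 on the log2 scale, overlapped groups 2 and 1. It was 2.83-fold lower in group 4 than in group 2, a log2 difference of -1.42 ± 0.31 (SE), with q = 7.1e-04 in the authors' deposited table. Against group 1 it was 2.17-fold lower (-1.05 ± 0.28), with q = 0.014 in the authors' deposited table, a call that ended when the shift of all genes was taken out.

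Type I collagen, the main collagen of fibres, has chains encoded by Col1a1 and Col1a2. Col1a1 stood at 6.52 (group 4), 12.8 (group 3), 14.7 (group 2) and 11.3 FPKM (group 1). Col1a2 stood at 13.1 (group 4), 18.2 (group 3), 28.0 (group 2) and 22.0 FPKM (group 1). Both were lowest in group 4 and highest in group 2. In group 4 against group 2, Col1a1 differed by -1.07 ± 0.30 and Col1a2 by -1.04 ± 0.30 on the log2 scale, with q = 0.020 and q = 0.025 in the authors' deposited table. Neither call held once the shift was taken out. Against group 1 neither passed, at -0.71 ± 0.27 for each and q = 0.19 and q = 0.18 in the authors' deposited table. A type I molecule holds more alpha-1 than alpha-2 chain. The ratio of Col1a1 to Col1a2 FPKM was below 1 in every group, at 0.499 (group 4), 0.707 (group 3), 0.527 (group 2) and 0.512 (group 1). A ratio of FPKM does not give the proportion of the chains made.

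Type V collagen, which starts fibril assembly and sets fibril diameter, gave no call in any pair. Col5a2 stood at 2.86 (group 4), 4.67 (group 3), 5.17 (group 2) and 3.65 FPKM (group 1). Col5a1 stood at 2.14 (group 4), 2.59 (group 3), 3.60 (group 2) and 2.95 FPKM (group 1). Both had the order of Col3a1 at its ends, lowest in group 4 and highest in group 2, with differences of -0.68 ± 0.27 (Col5a2) and -0.55 ± 0.25 (Col5a1) between those groups. Col5a3 lay between 1.19 and 1.24 FPKM in all 4 groups, and its differences ranged from -0.02 to 0.03.

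The basement membrane collagens did not move as 1 set. In groups 3 and 4 against groups 1 and 2, Col7a1 and Col18a1 were higher, Col15a1 was lower and the type IV chains gave no call. Col7a1, the chain of the anchoring fibrils, stood at 4.78 (group 4), 6.26 (group 3), 2.09 (group 2) and 2.46 FPKM (group 1). Groups 4 and 3 were both above groups 2 and 1, beyond the SE. It was 2.29-fold higher in group 4 than in group 2 (0.90 ± 0.29) and 2.99-fold higher in group 3 than in group 2 (1.23 ± 0.41), with q = 0.040 and q = 0.047 in the authors' deposited table. Against group 1 it differed by 0.74 ± 0.27 in group 4 and 1.07 ± 0.40 in group 3, with q = 0.10 for both in the authors' deposited table. The difference between group 4 and group 1 passed once the shift was taken out. Adjustment within the comparison ended the call against group 2 in group 3, and a single variance per gene ended that in group 4.

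Col18a1, whose C-terminal fragment is endostatin, stood at 8.57 (group 4), 10.2 (group 3), 4.44 (group 2) and 4.53 FPKM (group 1). Groups 4 and 3 did not overlap groups 2 and 1 within 1 SE. None of the 4 pairs passed on its own, with differences from 0.79 to 1.04 and q from 0.18 to 0.21 in the authors' deposited table. Col15a1, the related multiplexin, ran the other way, with 1.59 (group 4), 2.05 (group 3), 4.67 (group 2) and 3.76 FPKM (group 1). It was 2.93-fold lower in group 4 than in group 2 (-1.13 ± 0.27), with q = 0.011 in the authors' deposited table. Against group 1 the difference was -0.88 ± 0.25 with q = 0.053 in the authors' deposited table. The ratio of Col18a1 to Col15a1 FPKM was therefore 5.39 in group 4 and 4.95 in group 3, but 0.952 in group 2 and 1.21 in group 1.

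Type IV collagen, the sheet-forming collagen of every basement membrane, was represented mainly by the chains of its widespread form. Col4a1 stood at 5.85 (group 4), 8.57 (group 3), 11.3 (group 2) and 9.91 FPKM (group 1). Col4a2 stood at 4.63 (group 4), 6.40 (group 3), 7.41 (group 2) and 6.07 FPKM (group 1). Both were lowest in group 4 and highest in group 2, with -0.85 ± 0.28 for Col4a1 (q = 0.076) and -0.58 ± 0.27 for Col4a2 (q = 0.38) between those groups in the authors' deposited table. The ratio of Col4a1 to Col4a2 ranged from 1.26 in group 4 to 1.63 in group 1. Col4a5, a chain of a more restricted network, stood at 1.04 (group 4), 0.924 (group 3), 1.49 (group 2) and 1.43 FPKM (group 1), and passed in no pair. Set against Col4a1, Col7a1 was at a ratio of 0.817 in group 4 and 0.730 in group 3, but 0.184 in group 2 and 0.248 in group 1.

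Type VI collagen, the beaded filament collagen prominent around muscle fibres, had 2 of 3 tested chains lower in group 4 than in group 2. Of all genes tested in that pair, 2.25% were lower. Col6a2 stood at 6.48 (group 4), 7.51 (group 3), 17.003 (group 2) and 13.3 FPKM (group 1). Col6a1 stood at 8.36 (group 4), 8.57 (group 3), 18.2 (group 2) and 13.5 FPKM (group 1). For both genes groups 4 and 3 were close to each other and below groups 2 and 1. Col6a2 was 2.62-fold lower in group 4 than in group 2 (-1.27 ± 0.30) and 2.04-fold lower than in group 1 (-0.93 ± 0.27), with q = 0.0031 and q = 0.037 in the authors' deposited table. The call against group 1 ended when the shift was taken out. Col6a1 was 2.18-fold lower in group 4 than in group 2 (-1.04 ± 0.30), with q = 0.024 in the authors' deposited table, and this call too ended without the shift. Col6a3, the remaining chain of the main heterotrimer, lay between 1.48 FPKM in group 4 and 2.38 in group 2 and passed in no pair. Its ratio to Col6a1 was between 0.131 and 0.217 in the 4 groups.

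The remaining types gave 2 calls in the pairs. Col12a1, a fibril-associated collagen of dense connective tissue, stood at 0.766 (group 4), 2.10 (group 3), 0.847 (group 2) and 0.489 FPKM (group 1). Its level was highest in group 3, at 4.29 times that of group 1 (1.06 ± 0.41), with q = 0.034 in the authors' deposited table. Col12a1 reached 1 FPKM in group 3 alone and entered the test through that group, so its call is a description only. Col8a2, a short-chain collagen that forms hexagonal networks, stood at 0.504 (group 4), 0.279 (group 3), 1.42 (group 2) and 0.979 FPKM (group 1). It was 5.10-fold lower in group 3 than in group 2 (-0.92 ± 0.21), with q = 0.044 in the authors' deposited table, a call that ended when the shift was taken out. Col8a2 reached 1 FPKM in group 2 alone, so this call too is a description only. Its partner Col8a1 stood at 3.54 (group 4), 2.76 (group 3), 5.27 (group 2) and 3.27 FPKM (group 1). The ratio of Col8a1 to Col8a2 was 7.03 (group 4), 9.90 (group 3), 3.70 (group 2) and 3.34 (group 1).

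Col14a1, another fibril-associated collagen, stood at 3.38 (group 4), 2.09 (group 3), 5.58 (group 2) and 4.47 FPKM (group 1). Col22a1, a collagen of tissue junctions such as that between muscle and tendon, stood at 0.619 (group 4), 0.355 (group 3), 1.22 (group 2) and 1.15 FPKM (group 1). Both were lowest in group 3 and passed in no pair. Col23a1, a transmembrane collagen, was highest in group 3, with 2.63 (group 4), 3.08 (group 3), 1.76 (group 2) and 1.57 FPKM (group 1). Col16a1 lay between 2.01 and 2.61 FPKM and Col20a1 between 0.907 and 1.44 FPKM, with no call for either.

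Counted by comparison, the calls were most frequent in group 4 against group 2. There 6 of 22 collagen genes tested at 1 FPKM were lower and 1 was higher, where 2.25% and 3.31% of all genes tested were lower and higher. Without the shift of all genes the split was 3 lower and 1 higher. The median difference of the 22 was -0.57, beside -0.09 over all genes tested. In group 4 against group 1, 2 of 21 were lower and none higher, where 3.91% and 5% of all genes were; without the shift the split was 0 lower and 1 higher (Col7a1). The median of the 21 was -0.33, beside -0.08 over all genes. Both comparisons use group 4, so their results are not independent of each other.

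In group 3 against group 2, 1 of 23 collagen genes was higher and 1 lower, where 1.61% and 0.229% of all genes were, and the median was -0.36 beside -0.04 over all genes. The lower gene, Col8a2, entered the test through group 2 alone. In group 3 against group 1, 1 of 22 was higher, where 2.52% of all genes were higher, and the median was -0.17 beside -0.04. The higher gene, Col12a1, entered the test through group 3 alone. No collagen gene of 22 passed the authors' deposited test in group 2 against group 1, where 0.899% of all genes did. At an unadjusted p under 0.05 there were 3 of the 22, beside 3.4% of all genes, and no other tool was run. They were Col8a1 (0.56 ± 0.18), Col5a2 (0.41 ± 0.17) and Col6a1 (0.41 ± 0.19), all higher in group 2. The median of the 22 was 0.23 beside 0.02 over all genes, and 19 of the 22 differences were positive. In group 4 against group 3, none of 21 passed, where 0.294% of all genes did, and 1 of the 21, Col12a1 (-0.81 ± 0.44), had an unadjusted p under 0.05, as 0.813% of all genes did.

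**Figure D3:**
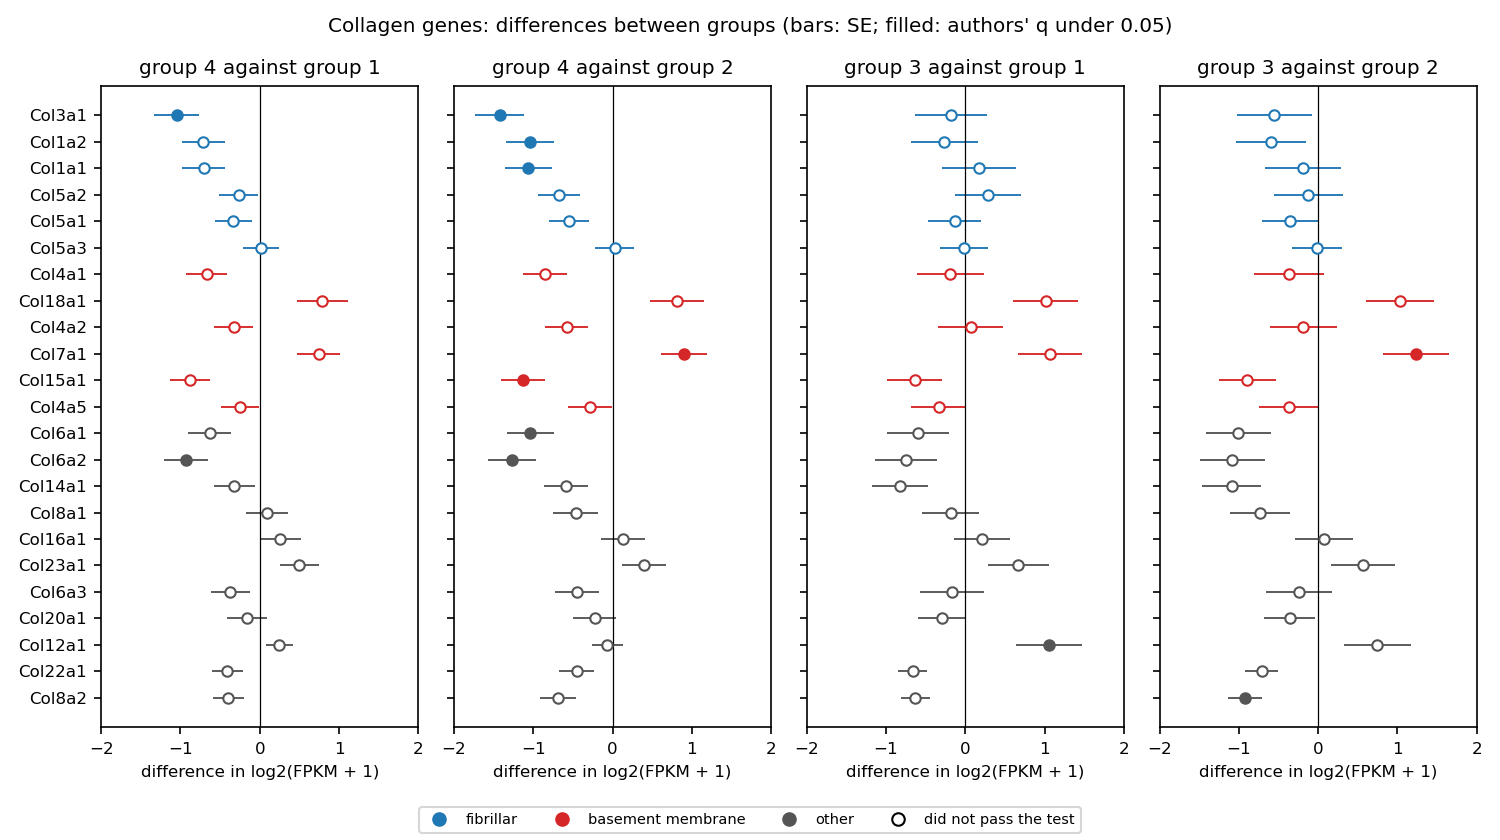
Difference in log2(FPKM + 1) (horizontal axis) of the 23 collagen genes at 1 FPKM (rows) in 4 pairs of numbered groups, coloured by class; bars are 1 SE and filled points passed the authors' test. In group 4 against group 2, Col3a1 (-1.42), Col6a2 (-1.27) and Col15a1 (-1.13) lie farthest to the left and Col7a1 (0.90) farthest to the right.

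In a 2 by 2 design 3 contrasts set 2 groups against the other 2, whichever number is which treatment, and the contrast of groups 3 and 4 with groups 1 and 2 gave all the collagen calls of the 3. It was tested on log2 FPKM for 13138 genes, 2-sided and Benjamini-Hochberg adjusted, with the group variances resolved from the authors' statistics. Of the 23 collagen genes, 2 were higher and 7 lower, where 7.31% and 7.98% of all genes were higher and lower. With the shift of all genes taken out (a median of -0.12), the split was 4 higher and 5 lower. Of the 18 collagen genes at 1 FPKM in every group, 2 were higher and 5 lower, where 5.59% and 7.98% of 11832 such genes were. The median of the 23 was -0.48, beside -0.09 over all genes.

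Col7a1 (1.27 ± 0.30, adjusted p = 5.6e-04 by the normal deviate) and Col18a1 (1.06 ± 0.30, adjusted p = 0.0056 by that test) were higher in groups 3 and 4. The 2 other genes that joined them once the shift was removed were Col12a1 (0.98 ± 0.38, adjusted p = 0.063 before) and Col23a1 (0.78 ± 0.33, adjusted p = 0.088 before). Lower were 1 fibrillar gene, Col3a1 (-0.84 ± 0.29, adjusted p = 0.030), the multiplexin Col15a1 (-1.21 ± 0.33, adjusted p = 0.0034) and the type VI chains Col6a1 (-0.89 ± 0.27, adjusted p = 0.012) and Col6a2 (-1.11 ± 0.28, adjusted p = 0.0015). The others lower were the fibril-associated Col14a1 (-0.91 ± 0.31, adjusted p = 0.029) and Col22a1 (-1.34 ± 0.41, adjusted p = 0.013), and the short-chain Col8a2 (-1.65 ± 0.45, adjusted p = 0.0041). The calls of Col3a1 and Col14a1 ended without the shift. Col22a1, Col8a2 and Col12a1 entered this contrast through groups where they were higher, so their values here are a description only. Col1a1, at -0.49 ± 0.30, and Col1a2, at -0.69 ± 0.27, did not pass (adjusted p = 0.29 and adjusted p = 0.069 by the normal deviate).

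Neither of the other contrasts gave a collagen call. In groups 2 and 4 against groups 1 and 3, 0 of 23 passed by the normal deviate, where 0.152% of all genes did, and 0 had an unadjusted p under 0.05. In groups 1 and 4 against groups 2 and 3, 0 of 23 passed by that test, where 0.145% of all genes did, and 3 had an unadjusted p under 0.05, namely Col12a1 (-1.12 ± 0.38), Col1a1 (-0.68 ± 0.30) and Col3a1 (-0.66 ± 0.29). No other tool was run on them. On simulated data, the test recovered 24% of 50 genes with a log2 change of 1 in groups 3 and 4 against groups 1 and 2. The share was 50% in groups 2 and 4 against groups 1 and 3. It was 30% in groups 1 and 4 against groups 2 and 3. A gene has the same SE in all 3 contrasts, so these shares differ through the draw of 50 genes. In the simulation 12938 of 13138 genes were unchanged, whereas 2009 genes passed in the real contrast of groups 3 and 4. A change of that size could often be missed in the simulation, and its percentages do not give the power in these data.

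Lists of genes that act on collagen were read against all genes tested, of which 5% were higher and 3.91% lower in group 4 against group 1, with a median of -0.08. Of 14 proteoglycans and glycoproteins that bind fibrils, 5 were lower and 1 higher in group 4 against group 1, with a median of -0.75. Kera (keratocan) fell to 0.0585 (group 4) and 0.391 (group 3), against 5.10 (group 2) and 6.46 FPKM (group 1) (-2.82 ± 0.14 in group 4 against group 1). That SE holds almost nothing of the error of the low group 4 level. Kera reached 1 FPKM in groups 2 and 1 alone and entered the tests through them, so its place in the counts of this list is a description only. Fmod (fibromodulin), which governs fibril thickness, was at 1.92 (group 4) and 1.82 (group 3), against 8.64 (group 2) and 9.34 FPKM (group 1) (-1.82 ± 0.31). The other 3 lower genes were the fibril-binding Dpt (dermatopontin, -1.29 ± 0.29), Lum (lumican, -1.27 ± 0.29) and Prelp (-1.0 ± 0.28), and the higher gene was Thbs1, encoding thrombospondin (1.89 ± 0.44). In groups 3 and 4 against groups 1 and 2, 11 of the 14 were lower and 1 higher, where 7.98% of all genes were lower and 7.31% higher, with a median of -0.95 beside -0.09 over all genes. Of the 11, Sparc (-0.74 ± 0.27), a collagen-binding glycoprotein, was the smallest difference.

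Of 17 genes of collagen folding and modification tested in group 4 against group 1, 1 was lower and 1 higher, with a median of -0.30. Serpinh1, the collagen chaperone HSP47, stood at 17.2 (group 4), 18.2 (group 3), 43.6 (group 2) and 39.9 FPKM (group 1) (-1.17 ± 0.34, group 4 against group 1). Leprel1, a prolyl 3-hydroxylase, stood at 5.88 (group 4), 5.56 (group 3), 2.56 (group 2) and 1.88 FPKM (group 1) (1.26 ± 0.32). In groups 3 and 4 against groups 1 and 2, Leprel1 was the 1 higher gene of 18, and 4 were lower, namely the collagen galactosyltransferase Glt25d2 (-1.26 ± 0.44), Serpinh1 (-1.24 ± 0.31), the lysyl hydroxylase Plod1 (-1.07 ± 0.30) and the prolyl 4-hydroxylase subunit P4ha1 (-0.84 ± 0.29). Of 7 genes of procollagen processing and crosslinking, 1 was lower in group 4 against group 1, namely Pcolce (-0.99 ± 0.30), the enhancer of procollagen C-proteinase, and the median was -0.16.

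Of 14 genes of collagen breakdown, 3 were higher in group 4 against group 1 and none lower, with a median of -0.20. The collagenase Mmp13 stood at 2.88 (group 4) and 3.37 (group 3), against 0.10 (group 2) and 0.0688 FPKM (group 1) (1.86 ± 0.31). The gelatinase Mmp9 stood at 3.28 (group 4) and 3.18 (group 3), against 0.362 (group 2) and 0.452 FPKM (group 1) (1.56 ± 0.32). The neutrophil collagenase Mmp8 was at 1.88 FPKM in group 4 and at 0.183 or less in the other 3 groups (1.47 ± 0.37). All 3 were under 1 FPKM in group 1 and entered the test through the group where they were higher, so their count is a description only. In groups 3 and 4 against groups 1 and 2, 7.31% of all genes were higher and 7.98% lower. There 4 of the 14 were higher, these 3 and Mmp14 (0.87 ± 0.28). These 3 entered this contrast too through the groups where they were higher, so that count is also a description only. Mmp8 was high in group 4 and not in group 3. Lower were 2 of the 14, the fibroblast surface protease Fap (-1.27 ± 0.38) and the metalloproteinase inhibitor Timp4 (-1.25 ± 0.38). Of 5 collagen receptors tested in that contrast, beside the 7.98% of all genes that were lower, 1 was lower, Itga11 (-1.31 ± 0.43), the alpha chain of an integrin that binds fibrillar collagen.

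Of 14 other basement membrane genes the median was -0.14 in group 4 against group 1. Genes higher there included the laminin chains Lama3 (1.44 ± 0.30) and Lamb3 (1.17 ± 0.30), found in the basement membrane of stratified epithelium. In groups 3 and 4 against groups 1 and 2 both were higher, as was Col7a1, and nidogen Nid1 (-0.79 ± 0.28) and the laminin chain Lamb2 (-0.77 ± 0.27) were lower. Of 11 genes of TGF-beta signalling, a pathway that drives collagen transcription in fibroblasts, Tgfb3 was lower in group 4 against group 1 (-1.01 ± 0.28) and the other 10 did not pass. Lower in group 4 than in group 2, where 2.25% of all genes were, were 2 of the 11, namely Tgfb3 (-1.04 ± 0.31) and the TGF-beta target Ctgf (-1.42 ± 0.33). These 2 were also lower in groups 3 and 4 against groups 1 and 2 (-1.30 ± 0.31 and -1.05 ± 0.28). Genes higher in group 2 against group 1, where 0.899% of all genes passed in either direction, included Ctgf (1.04 ± 0.20), at 81.0 FPKM in group 2, against 39.0 in group 1.

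**Figure D4:**
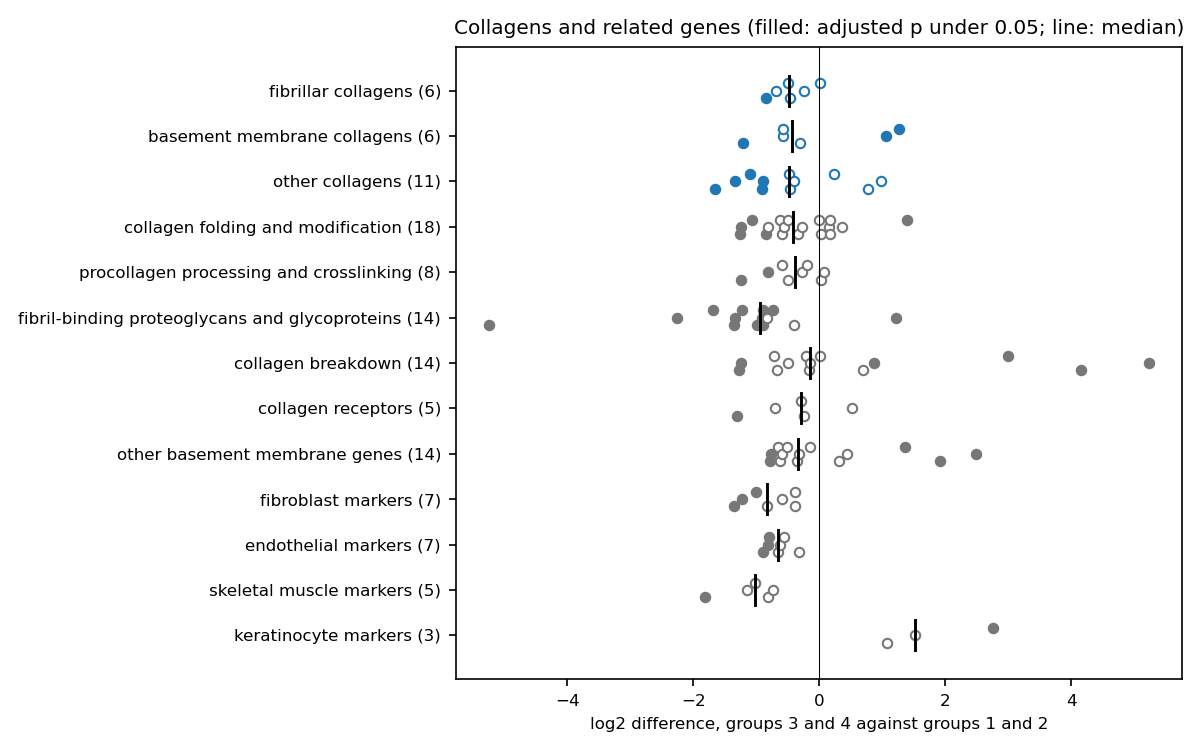
Log2 difference of groups 3 and 4 against groups 1 and 2 (horizontal axis) for each collagen gene at 1 FPKM (blue) and for genes of related lists (grey), with the number of genes tested in brackets; filled points had an adjusted p under 0.05 and the black line is the list's median. The fibril-binding list has a median of -0.95, and Col7a1 (1.27) and Col18a1 (1.06) are the filled collagen points to the right of 0.

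Levels of cell type markers also differed between the groups, and their part in the result was not tested. All 7 fibroblast markers were detected, none at 0, with a summed level of 402.9 (group 4), 378.1 (group 3), 801.0 (group 2) and 701.1 FPKM (group 1). In group 3 that sum was 0.539 times that of group 1, and the fibrillar collagen sum was 0.923 times that of group 1. In group 4 the fibroblast sum was 0.575 times that of group 1, and the fibrillar collagen sum was 0.572 times. Against group 2 the group 4 values were 0.503 and 0.447 times. All 7 had negative differences in group 4 against group 1 and against group 2, of which 2 and 3 passed (Dpt and Lum, with Mfap5 against group 2). Of all genes tested, 3.91% and 2.25% were lower in these pairs. Dpt and Lum are also among the fibril-binding genes. The 7 endothelial markers summed to 53.9 (group 4), 41.3 (group 3), 83.1 (group 2) and 66.2 FPKM (group 1). The 5 mural markers summed to 94.9 (group 4), 80.1 (group 3), 143.8 (group 2) and 163.9 FPKM (group 1). The 5 adipocyte markers summed to 245.8 (group 4), 177.9 (group 3), 360.7 (group 2) and 413.3 FPKM (group 1). The 5 Schwann cell markers summed to 68.4 (group 4), 62.3 (group 3), 77.9 (group 2) and 64.9 FPKM (group 1). The 4 tendon markers, Kera among them, summed to 2.02 (group 4), 2.72 (group 3), 9.30 (group 2) and 11.2 FPKM (group 1), and the 6 cartilage and bone markers to 4.87 (group 4), 1.90 (group 3), 6.23 (group 2) and 7.79 FPKM (group 1). The Schwann cell sum was the only one of these 7 sums that was not lower in both group 4 and group 3 than in both group 2 and group 1.

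Skeletal muscle and epithelium, the defining tissues of tongue, were both present. The 5 muscle markers with a level in every group summed to 9687 (group 4), 8086 (group 3), 16878 (group 2) and 18347 FPKM (group 1), and Acta1 had no level in groups 2 and 1. The 3 keratinocyte markers with a level in every group (Krt5, Trp63 and Dsg3) summed to 1173 (group 4), 1314 (group 3), 500.6 (group 2) and 363.5 FPKM (group 1), while the authors' read limit left Krt14 without a level in group 3, Krt13 in groups 4 and 3 and Krt4 in group 4. Dsg3, a desmosomal cadherin, passed the test (2.54 ± 0.32 in group 4 against group 1). Of the leukocyte markers, S100a8 gave nearly all of a summed level of 3190 (group 4), 2608 (group 3), 18.8 (group 2) and 10.7 FPKM (group 1). Of all genes tested in groups 3 and 4 against groups 1 and 2, 7.98% were lower and 7.31% higher. Among the markers, 4 of 4 adipocyte, 3 of 7 fibroblast, 3 of 7 endothelial and 2 of 5 mural markers were lower there. So were 1 of 5 muscle (Pvalb), 1 of 4 tendon and 1 of 2 cartilage and bone markers, and no Schwann cell marker passed. The tendon marker Kera entered that contrast through groups 2 and 1 alone and is a description only. Higher were 1 of 3 keratinocyte (Dsg3) and 1 of 4 leukocyte markers (S100a8). The macrophage marker Emr1 was at -0.48 ± 0.39 in that contrast and did not pass. The cartilage and bone markers did not all go the same way. In group 4 against group 1, 1 of 3 tested was higher (1.12) and 0 were lower, where 5% of all genes were higher and 3.91% lower.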

How the data were processed

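RNA sequencing of tongue was read from 6 deposited tables, 1 for each pair of 4 numbered groups. The deposited levels, 1 per gene and group, were read as the FPKM computed by the authors with Cufflinks against mm9, per the series design text, and GSNAP 2011.11.17 and edgeR appear without a role in the submitters' processing notes. Per the file headers, each row also holds the authors' p-value and q-value and a score, their test statistic. Benjamini-Hochberg adjustment of the p-values over the 92458 tests of all tables gave the deposited q-values to within 3.40e-06. The depth of each sample is unknown, and values per sample were not used here.

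Log2 differences were computed on FPKM + 1. Each SE came from the log2 ratio over the authors' statistic, moved to that scale by the delta method. From the 6 squared errors per gene, 4 group variances were solved by least squares, with a largest relative misfit of 0.00178, and the 3 ways of setting 2 groups against 2 were tested as normal deviates, 2-sided, Benjamini-Hochberg adjusted over 13138 genes at 1 FPKM in 1 or more groups. The contrast test was tested on simulated data of 13138 genes, where it recovered from 88% to 100% of genes with a log2 change of 2 or more and fewer with a change of 1. There were 7 collagen lists and 17 other lists, with 193 of 202 genes found by symbol. Any collagen gene at 1 FPKM may be named; from another list, the 3 genes with the largest difference in group 4 against group 1 among those that passed, and those that a count of 5 or fewer refers to. Some genes that this rule takes are not reported here. Sparc was named after its value was seen, as were Dpt and Lum as shared members. The collagen genes, lists, tests and alternatives were chosen with earlier results of these data known. Alternatives were other q thresholds, FPKM filters, pseudocounts and adjustments, a minimum difference, centring on the median and a single variance per gene. Python 3.11.15, numpy 2.4.6, pandas 2.3.3, scipy 1.17.1 and matplotlib 3.10.9 were used.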

Additional observations from a re-analysis of the deposited data

How the results depend on the processing

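The direction of every collagen difference named as called was the same under each alternative run. Only centring on the median could have changed a direction, since the other settings leave the sign of a difference as it was. The calls of Col3a1 and Col6a2 in group 4 against group 2, and of Col7a1, Col18a1 and Col6a2 in groups 3 and 4 against groups 1 and 2, held under all the alternatives. Of 69 counts of collagen calls under an alternative, 53 were within 1.5 times the count reported. The 53 include comparisons with no collagen call under any setting. They also include the pseudocount settings, which leave the authors' q-values as they were. That share therefore says little about how stable the calls were. In group 4 against group 1, 2 calls became 0 at a q threshold of 0.01 and with a single variance per gene, 1 with a log2 difference of 1 or more required, 1 after centring on the median and 4 with adjustment within the comparison. In group 4 against group 2, 7 calls became 2 at q under 0.01, 4 after centring and 3 with a single variance. In group 3 against group 2, 2 calls became 0 at q under 0.01 and with adjustment within the comparison, and 1 with the minimum difference, at 5 FPKM or more and after centring. In group 3 against group 1, 1 call became 0 at q under 0.01 and at 5 FPKM or more. In groups 3 and 4 against groups 1 and 2, 9 calls became 5 at an adjusted p under 0.01. The stricter thresholds and filters give fewer calls by their construction. Centring and the single variance each ended the calls of Col3a1 and Col6a2 in group 4 against group 1 and of Col1a1, Col1a2 and Col6a1 in group 4 against group 2. Centring also ended those of Col8a2 in group 3 against group 2 and of Col3a1 and Col14a1 in groups 3 and 4 against groups 1 and 2, and the single variance that of Col7a1 in group 4 against group 2; for both settings the cause was not tested. A filter of 5 FPKM removes genes whose levels stay below it, among them Col12a1, Col15a1 and Col8a2. No paired analysis was possible because the tables hold 1 value per group and none per sample, and for the same reason no sample could be left out in turn. The unknown depth and the large SE of group 3 limit what could be detected, above all for genes near 1 FPKM.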
